A study of Mus musculus with 4 samples.

Results

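The BCL2 family sets the threshold at which a cell opens its mitochondria and dies by apoptosis. BH3-only proteins sense stress and start the process, the effectors BAX and BAK1 form pores in the outer mitochondrial membrane, and anti-apoptotic members such as BCL2, BCL-XL and MCL1 bind and restrain both. NOXA, the product of Pmaip1, is a BH3-only protein known for binding MCL1 and for being induced by p53 and by stress. The same machinery operates in fibroblasts.

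The 10 genes described here were taken by symbol from a count table of 23377 genes, and all 10 passed the filter on low counts together with 12001 genes in all. They are the BH3-only genes Pmaip1, Bbc3, Bcl2l11, Bid and Bmf, the effector genes Bax and Bak1, and the anti-apoptotic genes Bcl2, Bcl2l1 and Mcl1. The 4 libraries were made from poly(A) RNA of cancer-associated fibroblasts (CAFs), the fibroblasts of a tumour, from mouse. Resistant tumour CAFs (sample name RES4, 2 replicates), here resistant CAFs, carried the phenotype label of tumour resistance, and normal tumour CAFs (sample name WTA, 2 replicates), here normal CAFs, that of a normal tumour. The series title speaks of therapies aimed at MET and EGFR and of resistance to them, but the labels give no mouse strain, genotype, sex, age, drug, dose or sort for either group. The series text calls the replicates biological, but each group has a single sample name, so the group and the traits of 1 tumour or culture cannot be told apart. The p-values then rest on how far these libraries differ within a group, which may be technical. The labels describe a TruSeq kit and a SMART-seq2 protocol for every library without assigning either.

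Library totals ran from 2785936 to 5558541 reads, and a count of 0 allows up to 0.505 to 1.14 CPM, the unit used here for reads relative to the TMM-adjusted library total. These limits and the counting intervals below cover counting error only. The labelled cell type was checked against markers. Of 11 tested fibroblast genes 10 were higher in resistant CAFs, and Postn was not called (-0.10 ± 0.22 on the log2 scale). The collagen gene Col1a1 stood between 965 and 1703 CPM in the 4 libraries. The other fibroblast markers ranged widely in normal libraries, from Col1a2 at 1148 and 963 CPM to Lum, with 0 reads. Col3a1 had 392 and 370.5 CPM there, Pdgfrb 264 and 160 CPM and Postn 626 and 552 CPM, while Dcn and Pdgfra were low. Dcn had 92.5 and 127 CPM in resistant against 0.743 and 0.168 CPM in normal libraries. Pdgfra had 1119 and 881 against 29.7 and 7.41 CPM. Markers of Schwann cells and neural crest moved with the groups: all 6 tested genes of a list of 9 were lower in resistant CAFs. The summed level of that list was 10.3 and 9.91 CPM in resistant CAFs against 1250 and 1107 CPM in normal libraries. Of 6 pericyte and smooth muscle markers 2 were lower, Cspg4 (-3.86 ± 0.37 on the log2 scale) and Mcam (-3.59 ± 0.33), and 2 higher, Rgs5 (3.21 ± 0.74) and Myh11, which had 77 and 43 reads in resistant and 0 in normal libraries. The summed level of this list was 317 and 432 CPM in resistant against 848 and 715 CPM in normal libraries. Of 7 epithelial markers Epcam, Cdh1 and Krt5 had no read in any library, while Krt19 was higher in resistant CAFs (45.7 and 63.9 against 6.44 and 6.40 CPM). Krt14, too low to be tested, went the other way, with 0 reads in resistant and 12 and 15 reads in normal libraries. The epithelial list summed to 45.7 and 63.9 against 9.66 and 9.26 CPM. Of the macrophage and leukocyte markers Ptprc, Emr1 and Cd3e had no read, Lyz2 was higher (7.61 and 7.71 against 0.496 and 1.18 CPM), Cd68 and Csf1r were detected in every library and not called, and the list summed to 17.1 and 18.4 against 8.18 and 7.24 CPM. The summed level of 5 endothelial markers was 1.47 to 5.95 CPM. The part of cell type in the values below was not tested, and in bulk RNA fewer cells of a type and less RNA per cell cannot be told apart.

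Pmaip1 was nearly absent from resistant CAFs. Among the other members Bcl2, Bak1 and Bcl2l1 were lower and Bmf was higher, so pro-apoptotic and anti-apoptotic genes were found in the lowered set. In all, 4 of 10 members fell and 1 rose (edgeR's quasi-likelihood test, Benjamini-Hochberg adjusted p under 0.05), beside 13.9% of all tested genes called lower, 15.5% called higher and 29.4% called in either direction. The median log2 fold change of the 10 members was -0.73, against -0.0036 over all tested genes. For 9 of 10 members the CPM ranges of the groups did not overlap, which was also so for 64.7% of all tested genes. Without normal replicate 1 or without normal replicate 2, the calls were Pmaip1 and Bcl2 only, each lower.

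**Figure D1:**
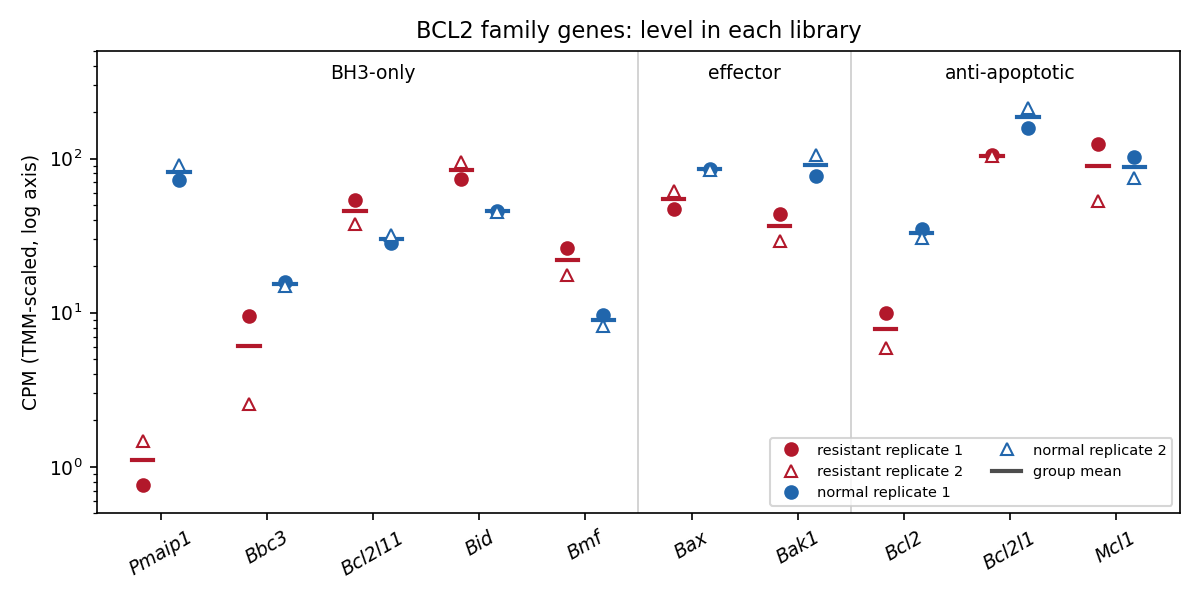
Level of each BCL2 family gene in CPM on a log axis, by role, with 1 point per library and a bar at each group mean (n = 2). Pmaip1 stands at 0.761 and 1.47 CPM in resistant CAFs and 72.6 and 90.9 CPM in normal CAFs, and Mcl1 is the member whose groups overlap.

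Among the BH3-only genes, Pmaip1 was counted with 2 reads in resistant replicate 1, 4 in resistant replicate 2, 293 in normal replicate 1 and 540 in normal replicate 2. In CPM these were 0.761 and 1.47 against 72.6 and 90.9. Both resistant libraries were thus at about the level that a count of 0 allows, while both normal libraries were far above it. The log2 fold change was -6.15 ± 0.56 (SE, adjusted p = 1.18e-05), and the ratio of pooled CPM was 74.5 in favour of normal CAFs (95% exact counting interval 34.1 to 203). Over 14 alternative settings the log2 fold change ran from -6.70 to -5.77 and the adjusted p from 1.41e-26 to 9.46e-04. By fold, Pmaip1 was the 153rd most lowered of the 12001 genes tested. The authors' deposited table gives a log2 fold change of -6.22 with an adjusted p of 4.35e-11. No other member is under 0.05 there, and Bcl2 has -2.08 with an adjusted p of 0.353. DESeq2 as run here gave Bcl2 -2.06 with an adjusted p of 0.00152. The settings behind the deposited adjusted p were not stated, so it cannot be compared with those given here.

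Bmf, whose product is bound to the cytoskeleton in healthy cells and is released by loss of attachment, was the member that rose. It stood at 26.2 and 17.6 CPM in resistant CAFs and at 9.66 and 8.25 CPM in normal CAFs, so both resistant libraries were above both normal ones. Its log2 fold change was 1.29 ± 0.45 (adjusted p = 0.0463). This call lay close to the threshold and was lost without resistant replicate 1 (adjusted p = 0.133), normal replicate 1 (adjusted p = 0.220) or 2 (adjusted p = 0.363), with DESeq2 (adjusted p = 0.0860) and with library totals as scaling (adjusted p = 0.0631).

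Bid, which caspase 8 cleaves to link death receptors to mitochondria, had 74.2 and 95.4 CPM in resistant CAFs and 45.6 and 45.3 CPM in normal CAFs. The groups did not overlap, but the log2 fold change of 0.90 ± 0.35 did not pass the test (adjusted p = 0.0701). It passed without resistant replicate 1 (1.08, adjusted p = 0.0162). Bcl2l11, which encodes BIM, a BH3-only protein that binds all anti-apoptotic members, had 53.7 and 37.4 CPM in resistant CAFs and 28.5 and 32.0 CPM in normal CAFs. Its log2 fold change of 0.59 ± 0.39 did not pass (adjusted p = 0.296), nor did it under any of the 14 alternatives.

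Bbc3 encodes PUMA, the other BH3-only protein known as a p53 target. It had 25 and 7 reads, or 9.51 and 2.57 CPM, in resistant CAFs and 15.9 and 14.8 CPM in normal CAFs. The resistant replicates lay 1.89 apart on the log2 scale, where the SD of that difference across all tested genes was 0.74. The log2 fold change of -1.34 ± 0.57 did not pass the test (adjusted p = 0.0996). It passed with library totals (adjusted p = 0.0356), no filter on low counts (adjusted p = 0.0229), with edgeR in its likelihood ratio form (adjusted p = 0.0497) and without resistant replicate 1 (-2.56, adjusted p = 0.0158). In each of these 4 settings 5 members were called lower. Without resistant replicate 2 its log2 fold change was -0.69 (adjusted p = 0.284).

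The effector genes Bax and Bak1 code for the pore-forming proteins, which can replace each other in most cells. Bak1 stood at 43.8 and 29.0 CPM in resistant CAFs and at 77.1 and 105.5 CPM in normal CAFs. It fell by 1.33 ± 0.38 on the log2 scale (adjusted p = 0.0181), a call that was lost without normal replicate 1 (-1.61, adjusted p = 0.0688) or 2 (-1.13, adjusted p = 0.291). Bax had 47.2 and 62.0 CPM in resistant CAFs and 85.5 and 84.3 CPM in normal CAFs. Its groups did not overlap either, and its log2 fold change of -0.64 ± 0.34 did not pass (adjusted p = 0.192). Leaving out resistant replicate 2 brought it past the threshold (-0.85, adjusted p = 0.0476). In the GENCODE M21 annotation 192 exonic bases of Bax lie in Gm45808 on the same strand, and exons of Bak1, Bcl2 and Bid share 614, 558 and 628 bases with Ggnbp1, D630008O14Rik and Bcl2l13 on the opposite strand. Neither kit marks strand, so reads from the shared bases cannot be told apart. Each member's fold change on the log2 scale is plotted with its range over the alternatives.

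**Figure D2:**
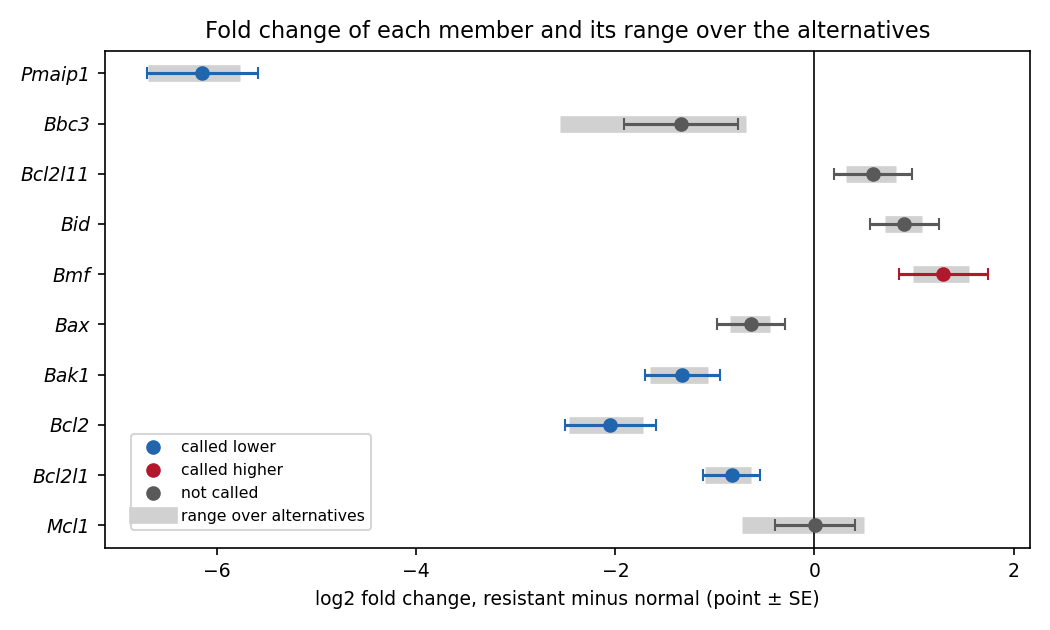
Log2 fold change of each member, resistant minus normal, as a point with its SE, coloured by call, over a grey band from the lowest to the highest value over the reported fit and its alternatives (14 alternatives, 13 for Bmf). Pmaip1 lies at -6.15 in a band from -6.70 to -5.77, and the bands of Bbc3 (-2.56 to -0.69) and Mcl1 (-0.72 to 0.49) are the widest.

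Of the anti-apoptotic genes, Bcl2, the founding member of the family, had 26 and 16 reads in resistant CAFs and 141 and 181 reads in normal libraries. Its level was 9.89 and 5.87 CPM in resistant CAFs against 34.9 and 30.5 CPM in normal CAFs, with every normal library above both resistant ones. It fell by 2.05 ± 0.46 on the log2 scale (adjusted p = 0.00477) and was called lower under all 14 alternatives, with values from -2.46 to -1.72. Bcl2l1, which encodes BCL-XL, had 105.4 and 103.5 CPM in resistant CAFs and 159 and 213 CPM in normal CAFs. Its log2 fold change was -0.83 ± 0.29 (adjusted p = 0.0450). The call was lost without resistant replicate 2 (adjusted p = 0.0577), normal replicate 1 (adjusted p = 0.166) or 2 (adjusted p = 0.605), and with a filter of 50 reads in 2 libraries (adjusted p = 0.0598).

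Mcl1, which encodes a short-lived anti-apoptotic protein and the main partner of NOXA, was at a like mean level in both groups: the mean of the resistant libraries was 88.8 ± 50.4 CPM (SD, n = 2) and that of the normal ones 88.5 ± 18.8 CPM. Its resistant libraries stood at 124 and 53.2 CPM, on both sides of the normal libraries at 102 and 75.2 CPM. The log2 fold change was 0.01 ± 0.40 (adjusted p = 0.993), and its sign depended on which library was left out: -0.72 without resistant replicate 1 and 0.49 without resistant replicate 2.

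The 250 bases before each RefSeq start (GRCm38.p6) were searched on both strands for motifs of 6 factor families. The RefSeq table gave 16 windows of 9 members, all but Pmaip1. The motifs were CACGTG (E-box, bound by MYC), TGACGT (the half-site of ATF and CREB factors), TGTTTAC (FOXO), GAAANNGAA (IRF), TGANTCA (AP-1) and the p53 half-site. The files name mm9, so these coordinates locate the sequences only. The windows of Bcl2 and Bak1 are shown because both genes fell and have 1 window each, and that of Bax as the other effector gene. All 3 are on the minus strand and run 5′ to 3′, with matches in capitals:
Bcl2 (chr1:106714291-106714540): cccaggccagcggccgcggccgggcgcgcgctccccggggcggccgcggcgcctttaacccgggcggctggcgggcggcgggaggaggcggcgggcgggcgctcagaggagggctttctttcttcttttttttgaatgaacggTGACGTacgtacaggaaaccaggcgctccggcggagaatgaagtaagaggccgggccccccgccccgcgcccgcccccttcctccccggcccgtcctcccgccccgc
Bak1 (chr17:27028628-27028877): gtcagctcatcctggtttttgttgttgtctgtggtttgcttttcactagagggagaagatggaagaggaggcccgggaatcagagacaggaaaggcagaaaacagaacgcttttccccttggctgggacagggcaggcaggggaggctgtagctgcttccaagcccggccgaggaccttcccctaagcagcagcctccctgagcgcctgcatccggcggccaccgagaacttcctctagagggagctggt
Bax (chr7:45466899-45467148): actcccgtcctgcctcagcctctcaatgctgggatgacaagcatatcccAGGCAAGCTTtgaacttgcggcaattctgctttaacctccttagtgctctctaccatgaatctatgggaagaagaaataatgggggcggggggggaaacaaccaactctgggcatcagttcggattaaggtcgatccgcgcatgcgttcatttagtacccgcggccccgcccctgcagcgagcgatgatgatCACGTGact

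The Bcl2 window held the ATF and CREB half-site, found in 6.47% of all 32851 windows. The Bax window held a p53 half-site (7.13% of all windows) and an E-box (6.02%), which did not overlap, and the Bak1 window held none of the 6 motifs. Bcl2l11 and Bbc3 each had 1 window with the FOXO motif (3.17%), Bbc3 had another with the E-box, and 1 of the 3 Bmf windows held the p53 half-site. The IRF and AP-1 motifs (7.13% and 6.75%) were in none of the 16 windows. G and C made up 74.8% of the Bcl2 window, 58.4% of the Bak1 window and 54.0% of the Bax window. These matches describe the letters in the windows, and no binding was measured.

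Levels were compared between genes per kilobase of exon (CPM per kb, with exon lengths from GENCODE M21). In resistant CAFs Bax was first at 34.7 ± 6.66 CPM per kb (SD, n = 2), followed by Mcl1 (26.0 ± 14.7), Bid (23.9 ± 4.23) and Bcl2l1 (22.8 ± 0.29), neighbours whose libraries overlapped. Bak1 came next at 15.1 ± 4.34 CPM per kb, apart from Bcl2l1 above it and from Bcl2l11 below it (5.67 ± 1.43). Bcl2l11, Bmf (4.18 ± 1.16) and Bbc3 (2.84 ± 2.31) overlapped as neighbours. Bcl2 (0.861 ± 0.31) and Pmaip1 (0.408 ± 0.18) were lowest, each apart from its neighbours. The Pmaip1 level rests on 2 and 4 reads, and in resistant replicate 2 it was 0.537 against 0.641 CPM per kb for Bcl2. Counting error may cover that gap, so the order of these genes is not resolved.

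In normal CAFs Bax was again first, at 53.9 ± 0.52 CPM per kb and apart from the next gene. Bcl2l1 (40.5 ± 8.43), Bak1 (37.9 ± 8.37), Pmaip1 (29.9 ± 4.74) and Mcl1 (25.9 ± 5.50) followed, each overlapping with its neighbour. Bid (12.8 ± 0.06) and Bbc3 (7.22 ± 0.35) stood apart below them. Bcl2l11 (3.77 ± 0.31) and Bcl2 (3.57 ± 0.35) overlapped, and Bmf was lowest at 1.71 ± 0.19 CPM per kb. By mean level Pmaip1 thus ranked 10 of 10 in resistant CAFs, close to Bcl2, and 4 of 10 in normal CAFs.

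The make-up of the BH3-only genes differed between the groups. On the per-kilobase scale Pmaip1 made up 50.8% and 56.8% of the summed level of the 5 BH3-only genes in normal replicates 1 and 2, and 0.746% and 1.47% in the resistant replicates. Bid made up 24.6% and 21.8% in normal and 56.0% and 73.4% in resistant CAFs. The BH3-only genes together held a like share of the summed level of all 10 members in every library, between 25.3% and 28.9%. Their summed level was 37.3 and 36.6 CPM per kb in resistant CAFs and 52.3 and 58.6 CPM per kb in normal CAFs. The effector genes summed to 48.1 and 51.4 against 86.2 and 97.3 CPM per kb, and the anti-apoptotic genes to 60.5 and 38.8 against 68.2 and 71.8 CPM per kb. All 3 sums were lower in both resistant libraries than in either normal library.

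**Figure D3:**
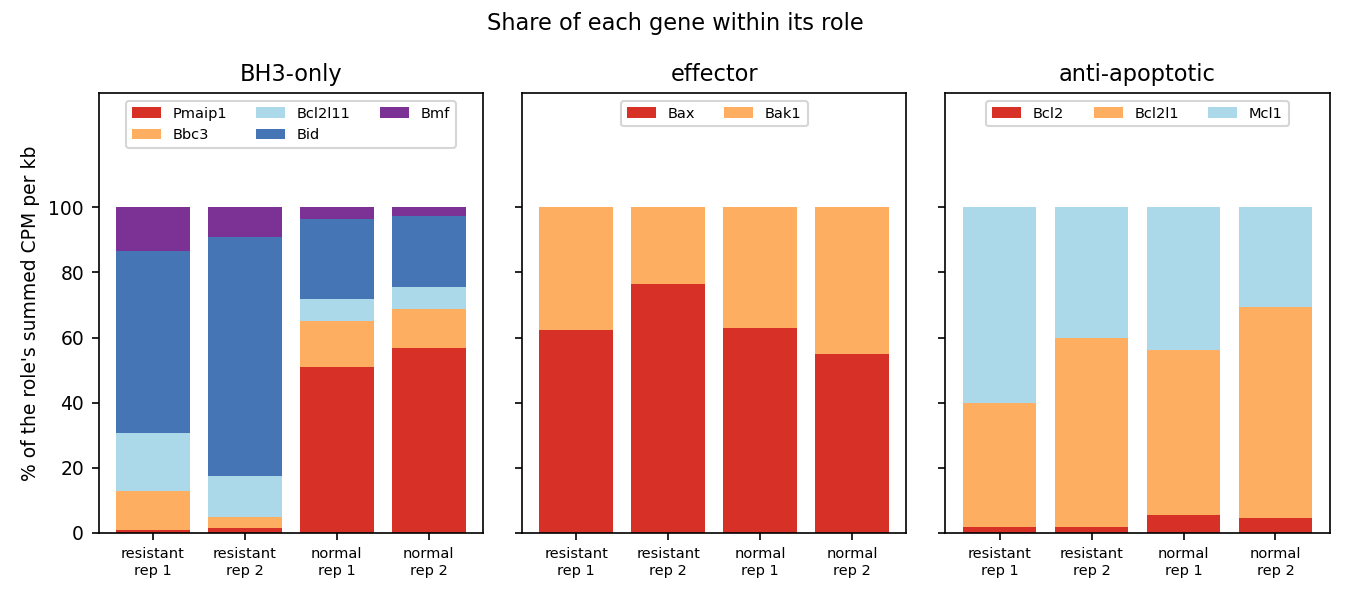
Share of each gene in the summed CPM per kb of its role, in percent, with 1 stacked bar per library. Pmaip1 fills 50.8% and 56.8% of the BH3-only bars in normal CAFs and 0.746% and 1.47% in resistant CAFs, while the effector and anti-apoptotic bars overlap between groups for every gene but Bcl2.

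Ratios between members within a library do not depend on library scaling. Relative to Mcl1, per kilobase, Pmaip1 had log2 ratios of -7.03 and -4.86 in resistant CAFs and -0.17 and 0.60 in normal CAFs. The resistant values rest on 2 and 4 Pmaip1 reads and on Mcl1 levels that differed between the replicates. Relative to Bcl2, Bmf had log2 ratios of 2.21 and 2.39 in resistant CAFs and -1.05 and -1.08 in normal CAFs, and Bcl2l11 had 2.63 and 2.86 against -0.10 and 0.26. In all of these pairs the libraries of a group lay on 1 side of those of the other. The ratio of Bax to Bcl2, an index often used for the balance of the family, was 4.79 and 5.94 against 3.83 and 4.01 on the log2 scale. Bcl2l1 to Mcl1 had log2 ratios of -0.66 and 0.54 in resistant CAFs and 0.21 and 1.08 in normal CAFs, and Bak1 to Bax -0.72 and -1.71 against -0.76 and -0.29. The groups overlapped for both of the last pairs.

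The genes whose pattern over the 4 libraries was most like that of Pmaip1, by distance of centred log2 CPM over genes whose mean level reached 10 CPM, were Ctsc (distance 0.11), Chst7 (0.21), Ntm (0.23), Mfsd2a (0.28) and Tspan15 (0.32). Ctsc encodes the lysosomal protease cathepsin C and stood at 1.52 and 2.57 CPM in resistant CAFs and 110 and 131 CPM in normal CAFs. Mfsd2a, a lipid transporter gene, had 0.381 and 1.10 against 44.8 and 61.9 CPM. Tspan15, a tetraspanin gene, had 1.14 and 2.20 against 126 and 123 CPM. Chst7 and Ntm had 1 read in the resistant libraries, and their normal-to-resistant ratios were 211 (95% exact counting interval 37.7 to 8370) and 205 (95% exact counting interval 36.6 to 8115). With 4 libraries in 2 groups, the genes nearest to Pmaip1 by this measure are genes with a like difference between the groups.

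Of the other BCL2 family genes listed, 8 of 16 were tested, 2 rose and 0 fell (25% called, beside 29.4% of all tested genes). Bnip3 and Bnip3l, BH3-like genes known as hypoxia targets that act in the removal of mitochondria, were the 2. Bnip3 stood at 491 and 560 CPM in resistant CAFs against 122 and 113 CPM in normal CAFs, with a log2 fold change of 2.16 ± 0.24 (adjusted p = 4.22e-05). Bnip3l rose by 1.31 ± 0.26 (adjusted p = 0.00215). None of the 8 was lower with edgeR at an unadjusted p under 0.05, and 0 were called lower by DESeq2, limma-voom or the likelihood ratio test. Bcl2a1a, Bcl2a1b and Bcl2a1d, near-identical genes for A1, another partner of NOXA, were listed at 0 reads in every library, as was Bcl2l10. Reads shared between such copies may have been dropped in counting.

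Downstream of the mitochondria, 3 of 19 tested apoptosome and caspase genes rose and 1 fell. The list's median log2 fold change was 0.14. The share called was 21.1%, below the 29.4% of all tested genes. Birc3 (cIAP2), an inhibitor of apoptosis and a known NF-kB target, had 92.5 and 123 CPM in resistant CAFs against 2.97 and 1.52 CPM in normal CAFs and rose by 5.61 ± 0.50 (adjusted p = 1.03e-05). Xiap (0.40 ± 0.28), Birc6 (0.22 ± 0.36) and Birc5 (-0.48 ± 0.33), of the same gene family as Birc3, did not pass the test. Birc2 (cIAP1) rose by 1.69 ± 0.37 and Cflar (c-FLIP, an inhibitor of caspase 8) by 0.91 ± 0.29. Birc2 and Cflar lost their calls without normal replicate 1 (adjusted p = 0.132 and 0.303) or 2 (adjusted p = 0.0825 and 0.430), and Cflar also with library totals (adjusted p = 0.0566). With either normal library left out, 1 gene of this list rose and 0 fell.

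Among 6 genes of death receptors and their adaptors, 2 rose and 1 fell, with a median log2 fold change of 0.74. The share called was 50%, beside 29.4% of all tested genes. Fadd, the adaptor that recruits caspase 8, stood at 16.7 and 20.6 CPM in resistant CAFs and 49.5 and 73.7 CPM in normal CAFs and fell by 1.73 ± 0.41 (adjusted p = 0.00680, or 0.127 without normal replicate 2). The TRAIL receptor gene Tnfrsf10b had 1.13 ± 0.40 (adjusted p = 0.0487) and the TNF receptor gene Tnfrsf1a 0.71 ± 0.24 (adjusted p = 0.0451). Their calls were lost without normal replicate 1 (adjusted p = 0.340 and 0.463), without normal replicate 2 (adjusted p = 0.403 and 0.424), with library totals (adjusted p = 0.0772 and 0.109) or with no filter on low counts (adjusted p = 0.0528 and 0.0731). That of Tnfrsf10b was also lost without resistant replicate 1 (adjusted p = 0.104), and that of Tnfrsf1a with loess offsets (adjusted p = 0.145) and DESeq2 (adjusted p = 0.0681).

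The p53 pathway list holds Pmaip1, Bbc3 and Bax. Of its other 16 tested genes 7 fell and 0 rose, and their median log2 fold change was -0.72. In the whole list of 19 tested genes 42.1% were called, beside 29.4% of all tested genes. With edgeR 0 of the whole list of 19 rose at an unadjusted p under 0.05, and 0 were called higher by DESeq2, limma-voom or the likelihood ratio test. The list does not hold every p53 target. Tnfrsf10b (1.13 ± 0.40, called higher with edgeR) and Fas (1.25 ± 0.53, adjusted p = 0.0972, not called) were placed among the death receptors. Gadd45a, a DNA damage response gene, had 6.47 and 8.44 CPM in resistant CAFs against 87.5 and 100.5 CPM in normal CAFs and fell by 3.65 ± 0.42 (adjusted p = 5.08e-05). Aen, a nuclease gene, fell by 2.17 ± 0.36 and Phlda3, an inhibitor of AKT, by 2.54 ± 0.49. Gdf15 had 1 read in the resistant and 32 in the normal libraries, a normal-to-resistant ratio of 17.2 (95% exact counting interval 2.87 to 699), and was not called without resistant replicate 1 (adjusted p = 0.0875), without normal replicate 2 (adjusted p = 0.0564) or with DESeq2 (adjusted p = 0.125), and did not pass the filter on low counts without normal replicate 1. Trp53 itself (p53) had -0.16 ± 0.27 and its ubiquitin ligase gene Mdm2, also a p53 target, -0.37 ± 0.28, neither past the test.

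The list's remaining lowered genes, picked for naming once their values were known, were Cdkn1a (p21, -0.92 ± 0.30), Plk2 (-0.98 ± 0.32) and Zmat3 (-1.55 ± 0.51). Without normal replicate 1 none of these 3 passed (adjusted p = 0.344, 0.160 and 0.200), and without normal replicate 2 Cdkn1a and Plk2 did not (adjusted p = 0.331 and 0.501). Zmat3 was not called without resistant replicate 2 (adjusted p = 0.100) or with the filter of 50 reads (adjusted p = 0.0515), nor Plk2 without resistant replicate 1 (adjusted p = 0.0504). Counting Pmaip1, 8 of the 19 genes fell, and 4 did without normal replicate 1 and 5 without normal replicate 2. This list shares members with the genes under study, so its count is not separate evidence about them.

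**Figure D4:**
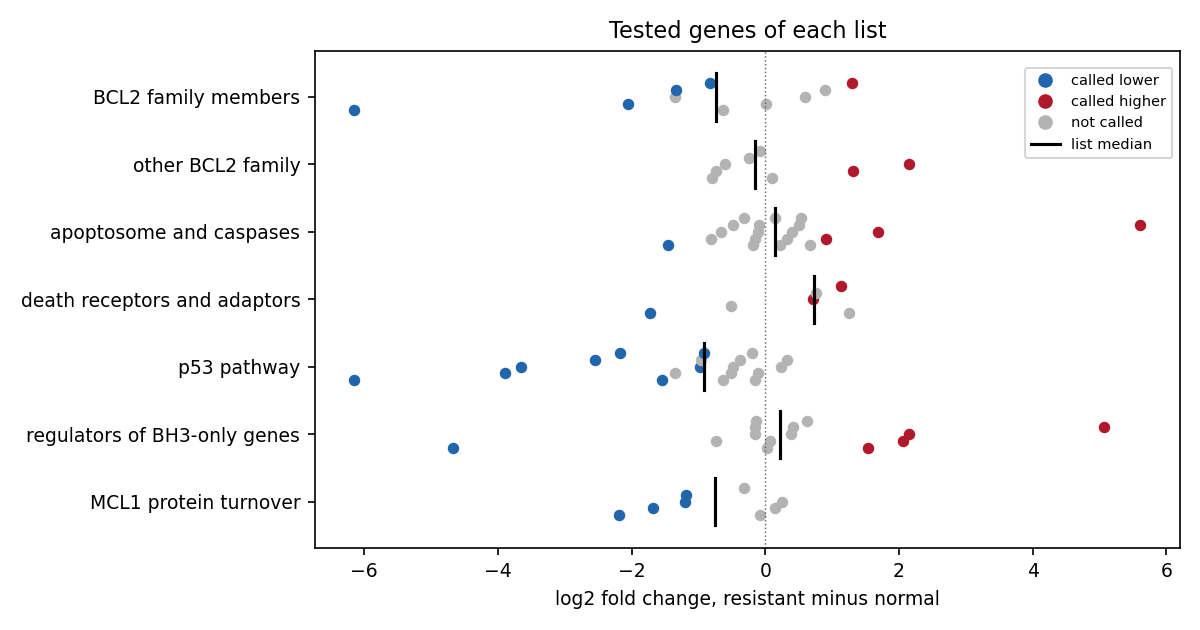
Log2 fold change of every tested gene in the members' list and in the 6 other lists, resistant minus normal, coloured by call, with a bar at each list's median. The medians run from -0.92 for the p53 pathway list (with Pmaip1, Bbc3 and Bax) to 0.74 for death receptors and adaptors. The fitted point of Gdf15 in the p53 pathway list rests on 1 resistant read.

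Of 14 tested genes of factors known to regulate BH3-only genes, 4 rose and 1 fell. The share called was 35.7%, beside 29.4% of all tested genes. Atf3, a stress-induced factor of the ATF and CREB family, stood at 4.95 and 8.44 CPM in resistant CAFs and 179 and 166 CPM in normal CAFs and fell by 4.68 ± 0.41 (adjusted p = 9.98e-06). The interferon regulatory factor gene Irf7 rose by 5.07 ± 0.51, Myc by 2.06 ± 0.25 and Irf1 by 1.53 ± 0.31; Irf1 was not called without normal replicate 1 (adjusted p = 0.121) or 2 (adjusted p = 0.0632). The stress factor gene Atf4 had 0.02 ± 0.28 and its target Ddit3 -0.13 ± 0.29, neither past the test.

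Of 8 genes listed for the turnover of MCL1 protein, 4 fell and 0 rose, with a median log2 fold change of -0.75. The share called was 50%, beside 29.4% of all tested genes. The list mixes ligase and deubiquitinase genes and also counts Dnajc3, which is neither, so its count and median give no direction of turnover. MCL1 protein was not measured. Usp13, a deubiquitinase reported to stabilise MCL1, fell by 2.18 ± 0.46 (adjusted p = 0.00325). March5, a ubiquitin ligase of the outer mitochondrial membrane, fell by 1.69 ± 0.37, Cul5, the scaffold of another ligase, by 1.20 ± 0.30 and Dnajc3, a chaperone gene of the endoplasmic reticulum, by 1.19 ± 0.26. None of the 8 rose at an unadjusted p under 0.05 with edgeR, or by DESeq2, limma-voom or the likelihood ratio test. Without normal replicate 1 the last 3 did not pass (adjusted p = 0.0610, 0.0647 and 0.0756), nor did Cul5 and Dnajc3 without normal replicate 2 (adjusted p = 0.230 and 0.0918). The ligase gene Huwe1 and the deubiquitinase gene Usp9x, both with MCL1 as a known substrate, had 0.14 ± 0.35 and -0.07 ± 0.27 and did not pass.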

How the data were processed

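RNA of 4 mouse CAF libraries in 2 groups was used. The authors deposited raw read counts per gene symbol, without pooling replicates. The submitters' processing notes name bcl2fastq 2, TopHat2 2.1.1, Picard 1.62, HTSeq 0.7.2, DESeq2 and the mm9 genome, while the gene annotation and tool settings were not stated there. A normalised table that the authors deposited was not used. From the authors' deposited table, log2 fold changes and adjusted p-values were copied for the members.

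Counts were fitted with edgeR 4.0.16 (R 4.3.3): filterByExpr with a minimum count of 10, TMM factors, the quasi-likelihood F test with group as the only term, and Benjamini-Hochberg adjustment over all 12001 genes tested. A gene was called at an adjusted p under 0.05. Fold changes are resistant minus normal. The SE of a log2 fold change was worked back from the test, as its absolute value divided by the square root of the F statistic. CPM used TMM-scaled totals; library totals were 2785936 to 5558541 reads. Counting intervals were exact at 95%. The fitting code was tested on simulated data. A permutation test of 2 against 2 libraries cannot go below 0.333 and was not used. Exon lengths came from GENCODE M21, which covered 95.1% of tested genes, and promoter windows from RefSeq (GRCm38.p6).

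The members and lists were chosen with earlier results of these data known. Named were all 10 members, up to 5 called genes of each other list by smallest p, or the 2 of highest level where none was called, and the 5 genes nearest to Pmaip1; any further gene was picked with its values in view. The 14 alternatives were other scalings (RLE, upper quartile, library totals, loess with a span of 0.5), no filter or 50 reads in 2 libraries, DESeq2 1.42.0, limma-voom (limma 3.58.1), edgeR's likelihood ratio test, a replicate block, and each library left out. Single values of a few listed genes are not reported here.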

Additional observations from a re-analysis of the deposited data

How the results depend on the processing

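Pmaip1 and Bcl2 were called lower under all 14 alternatives. Members called higher numbered 0 with library totals, with the filter of 50 reads (which left Bmf untested) and with DESeq2, and 2 with the replicate block. Leaving out 1 library at a time gave 0 to 1 members higher and 2 to 5 lower, 1078 to 2024 of all genes higher and 951 to 2323 lower, and 6 to 13 other pathway genes higher and 6 to 17 lower. Without 1 normal library, the lone sample was assumed to vary like the resistant ones, and likewise in reverse. Mcl1, never called, turned negative with RLE factors (-0.00018), upper-quartile factors (-0.0073), library totals (-0.14), no filter (-0.054), DESeq2 (-0.00039), limma-voom (-0.084), the replicate block (-0.099), without resistant replicate 1 (-0.72) and without normal replicate 2 (-0.25), and was 0.49 without resistant replicate 2. Library totals moved the median of all genes by -0.14 and the split of calls from 1857 higher and 1668 lower to 1736 higher and 2150 lower. The replicate block called 2257 genes higher and 2267 lower, with 5 members among the latter, and added Bbc3 (-1.49, adjusted p = 0.0119) and Bid (0.89, adjusted p = 0.0333). Deviations of same-numbered libraries correlated at 0.22 across 12001 genes, but 2 pairs do not show that the numbers pair the samples. The resistant value of Pmaip1 rests on 6 reads, and the counting interval of its ratio is wide for that reason.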
